A study of Mus musculus with 5 samples.

Results

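The Id proteins and the E proteins form a transcriptional switch in which one family restrains the other, and 6 of their genes were followed here across sorted mouse spleen T cells. The members are the Id genes Id1, Id2 and Id3 and the E protein genes Tcf3 (E2A), Tcf4 (E2-2) and Tcf12 (HEB), all 6 found by symbol among the 35275 rows of the deposited gene table. RNA was sequenced in 5 libraries: 1 of CD8+ regulatory T cells (CD8 Treg), 2 of CD4+ regulatory T cells (CD4 Treg) and 2 of cells labelled CD49lo. All came from wild-type C57BL/6 mice, 3 months old, with no treatment named, and all were sorted by flow cytometry after enrichment for CD8. The series speaks of CD8+ effector-like cells, which by elimination are the CD49lo libraries, and the sort markers and the sex of the mice are not given in the sources used here. Nothing says whether replicates came from separate animals, so p-values measure only the spread between these libraries, which may be technical, and every CD8 Treg value rests on n = 1.

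E proteins are basic helix-loop-helix factors that pair with each other and bind the E-box, the motif CANNTG, in enhancers and promoters of lymphocyte genes. Id proteins carry the helix-loop-helix without the basic region, so an E protein held by an Id protein cannot bind DNA. In mouse CD8 T cells Id2 is known for its part in effector differentiation and Id3 for its part in long-lived memory cells. In mouse regulatory T cells Id2 and Id3 together are known to hold E proteins in check, and E2-2 is best known as the factor that sets the identity of plasmacytoid dendritic cells.

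Promoter entries of RefSeq (build GRCm38.p6) matched 4 of the 6 members. The stretches below are shown because Id2 and Tcf3 differed between the groups while Tcf12, the other well-expressed E protein gene, did not pass the test in any comparison. Each lies upstream of the RefSeq start, is read 5′ to 3′ on the gene's minus strand, and is trimmed to bases that no annotated exon of that gene covers. The Id2 stretch lies inside Id2 as annotated in GENCODE M21 (25093799 to 25097140), between annotated exons, so it is not upstream of every Id2 transcript. An annotated exon lies between it and the RefSeq start, and its E-box begins 196 bases before that start. The Id3 entry lies within an annotated exon and is not shown. Capitals mark the E-box CANNTG, which reads the same on both strands.
Id2, chr12:25096254-25096342: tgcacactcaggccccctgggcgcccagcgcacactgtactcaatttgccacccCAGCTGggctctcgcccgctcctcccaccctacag
Tcf3, chr10:80433648-80433885: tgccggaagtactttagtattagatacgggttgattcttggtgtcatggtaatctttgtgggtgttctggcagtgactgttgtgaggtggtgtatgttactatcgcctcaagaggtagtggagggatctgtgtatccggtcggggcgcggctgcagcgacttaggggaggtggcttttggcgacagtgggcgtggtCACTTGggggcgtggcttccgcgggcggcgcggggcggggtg
Tcf12, chr9:72111872-72112069: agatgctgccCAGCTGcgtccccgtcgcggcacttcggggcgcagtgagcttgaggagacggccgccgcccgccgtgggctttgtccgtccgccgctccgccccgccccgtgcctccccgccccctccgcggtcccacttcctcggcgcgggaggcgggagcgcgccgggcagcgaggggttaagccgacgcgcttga
Each stretch held 1 E-box, CAGCTG for Id2 and Tcf12 and CACTTG for Tcf3. Such a match is common: of 32851 promoter entries, 33.0% hold an E-box in the same 89 bases as the Id2 stretch, 64.7% in the 238 bases of Tcf3 and 58.7% in the 198 bases of Tcf12. A match describes letters and is not evidence of binding.

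Depth and purity bear on what follows. Reads in genes, recovered from the deposited values, numbered 5441444 to 8354971 per library. T cell receptor complex and other T cell transcripts were high throughout, with 11 such genes summing to 3220 to 4294 RPKM (reads scaled to gene length and to the depth of the library). Foxp3, the lineage factor of CD4 regulatory T cells, stood at 0.387 RPKM in CD8 Treg, 146 and 146 RPKM in CD4 Treg, and 1.66 and 0.795 RPKM in CD49lo. Cd8a stood at 187 RPKM in CD8 Treg, 0.412 and 0.352 RPKM in CD4 Treg, and 215 and 255 RPKM in CD49lo, so both labels match their lineage markers. Transcripts of other cells were present unequally. The 15 B cell genes summed to 120 RPKM in CD8 Treg, 14.6 and 18.0 RPKM in CD4 Treg, and 209 and 278 RPKM in CD49lo. The 13 myeloid and dendritic cell genes summed to 260 RPKM in CD8 Treg, 15.1 and 4.20 RPKM in CD4 Treg, and 556 and 498 RPKM in CD49lo. Xist, made from the inactive X of females, was at 35.5 and 27.2 RPKM in CD4 Treg and at most 0.0834 RPKM in the other 3 libraries, while the Y-linked Ddx3y was at 18.3 RPKM or more in those 3. Sex and the CD4 Treg group therefore cannot be told apart. In bulk libraries, too, fewer cells of a type and less RNA per cell cannot be told apart.

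Members of both families differed between the populations. Id2 was lower in both regulatory populations than in CD49lo, Id3 was higher in CD4 Treg than in the other populations, Tcf4 was lower in both regulatory populations than in CD49lo, Tcf3 was lower in CD4 Treg than in CD49lo, and Id1 was close to the detection limit. In the fit over 13298 genes, 4 of the 5 members that could be tested passed in CD4 Treg against CD49lo (1 higher, 3 lower), where 22.1% of all tested genes passed (9.39% higher, 12.7% lower). Of the same 5, 2 passed in CD8 Treg against CD49lo, both lower, against 5.04% of all tested genes. The calls of that comparison, here and in the gene lists, rest on few libraries: without CD49lo replicate 1 limma called 0 of all genes, with 2209 at an unadjusted p under 0.05, and without CD49lo replicate 2 it called 90. Between CD8 Treg and CD4 Treg 2 of 5 passed, 1 in each direction, against 16.6%. The 3 comparisons share libraries, so their values stand side by side and are not independent.

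**Figure D1:**
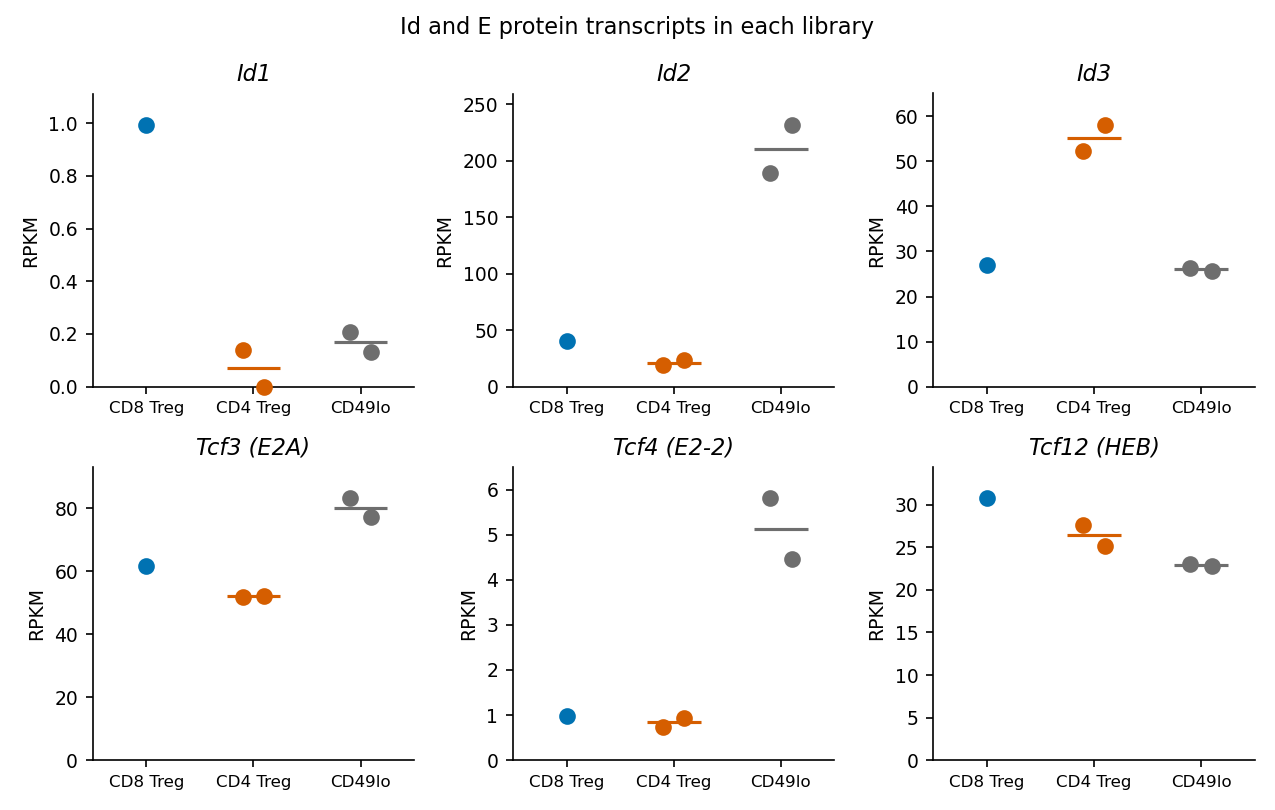
Level of each member in RPKM (y axis, from 0, own scale per panel) in each library, by group (x axis); points are libraries and bars are means of the 2 libraries of a group. Id2 is highest in the 2 CD49lo libraries (189 and 232 RPKM) and Id3 in the 2 CD4 Treg libraries (52.2 and 58.1 RPKM). Id1 is at most 0.994 RPKM and Tcf4 at most 5.80 RPKM.

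Id2 (ENSMUSG00000020644, mm10 chromosome 12, 25093801 to 25096092, minus strand), the inhibitor tied to effector differentiation, was the member with the widest range. It stood at 40.8 RPKM in CD8 Treg (315 reads), 19.3 and 23.4 RPKM in CD4 Treg (152 and 162 reads), and 189 and 232 RPKM in CD49lo (2007 and 1932 reads). The 3 groups did not overlap, with CD49lo highest and CD8 Treg between the others. In CD49lo Id2 ranked above 97.7% and 98.2% of the tested genes, and in CD4 Treg above 73.4% and 77.7%.

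On the log2(RPKM + 0.5) scale, the fold change of Id2 was -3.24 ± 0.16 in CD4 Treg against CD49lo (± SE, as after every fold change; limma, adjusted p = 3.28e-06), or 9.46-fold lower. Against CD49lo, CD8 Treg gave -2.21 ± 0.19 (adjusted p = 0.000670), or 4.62-fold lower. Against CD4 Treg, CD8 Treg gave 1.03 ± 0.19 (adjusted p = 0.00637), or 2.05-fold higher. Fold changes include a scaling of each library and can differ slightly from the ratio of the RPKM printed. The call against CD49lo in CD8 Treg was lost without CD49lo replicate 1 (adjusted p = 0.192) or replicate 2 (0.181), with fold changes of -2.34 and -2.07. That against CD4 Treg was lost without CD4 Treg replicate 1 (0.0832) or either CD49lo replicate (0.111 and 0.117).

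Id3 (ENSMUSG00000007872, chromosome 4, 136143497 to 136145755, plus strand), the inhibitor tied to memory and regulatory cells, showed the opposite order. It stood at 26.9 RPKM in CD8 Treg (209 reads), 52.2 and 58.1 RPKM in CD4 Treg (414 and 404 reads), and 26.3 and 25.7 RPKM in CD49lo (281 and 216 reads). CD4 Treg lay above all other libraries, and the CD8 Treg library lay just above both CD49lo libraries. The fold change in CD4 Treg against CD49lo was 1.09 ± 0.15 (adjusted p = 0.00109), or 2.13-fold higher. Against CD4 Treg, CD8 Treg gave -0.91 ± 0.19 (adjusted p = 0.0115), or 1.88-fold lower. Against CD49lo, CD8 Treg gave 0.18 ± 0.19 (adjusted p = 0.668), with a 95% interval of 0.842-fold to 1.53-fold, so a small difference is not excluded. The call in CD4 Treg against CD49lo was lost without CD49lo replicate 1 (adjusted p = 0.0785) or 2 (0.0815). That in CD8 Treg against CD4 Treg was lost without any 1 of the 4 replicated libraries (0.0856 to 0.111).

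Id1 (ENSMUSG00000042745, chromosome 2, 152736251 to 152737410, plus strand), the Id protein best known from endothelial and stem cells, had too few reads for the test. It had 7 reads in CD8 Treg, 1 and 0 in CD4 Treg, and 2 and 1 in CD49lo. The 7 reads equal 0.994 RPKM with an exact Poisson interval of 0.399 to 2.05 RPKM, which overlaps that of CD49lo replicate 1 (0.0250 to 0.745 RPKM). The 0 reads in CD4 Treg replicate 2 allow up to 0.475 RPKM (3 reads). Id4, the fourth family member, had 0 reads in all 5 libraries, which allows up to 0.298 RPKM in CD8 Treg, 0.291 and 0.332 RPKM in CD4 Treg, and 0.216 and 0.275 RPKM in CD49lo. Intervals and limits cover counting error only.

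The E protein genes varied less than Id2. By RPKM Tcf3 was the main one in every library, Tcf12 came next, and Tcf4 was a minor part. In CD8 Treg and CD4 Treg that order rests on the correction for gene length. As RPM, reads scaled to depth alone, Tcf12 made up 50.6% of the E protein reads in CD8 Treg and 52.3% and 49.7% in CD4 Treg, against 47.5%, 46.0% and 48.1% for Tcf3. In CD49lo Tcf3 led as RPM too, with 56.6% and 56.4% against 33.5% and 35.5% for Tcf12. Tcf3 (ENSMUSG00000020167, chromosome 10, 80409514 to 80433647, minus strand) encodes E2A, the E protein with the best-known part in B and T lymphocyte development. It stood at 61.6 RPKM in CD8 Treg, 51.9 and 52.1 RPKM in CD4 Treg, and 83.1 and 77.3 RPKM in CD49lo. The groups did not overlap, with CD49lo highest and CD4 Treg lowest. The fold change was -0.59 ± 0.11 in CD4 Treg against CD49lo (adjusted p = 0.00423), or 1.51-fold lower. It did not pass in CD8 Treg against CD49lo (-0.24 ± 0.13, adjusted p = 0.374, interval 0.687-fold to 1.04-fold) or against CD4 Treg (0.35 ± 0.13, adjusted p = 0.112). The call in CD4 Treg was lost without any 1 of the 4 replicated libraries (adjusted p = 0.0651 to 0.0830), with fold changes of -0.66 to -0.53. The table holds 1 value per gene, and the annotation (GENCODE M21) gives 12 coding transcripts for Tcf3 and 11 for Tcf12, so their splice forms were not resolved.

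Tcf12 (ENSMUSG00000032228, chromosome 9, 71842688 to 72111871, minus strand) encodes HEB, the partner of E2A in thymocytes. It stood at 30.7 RPKM in CD8 Treg, 27.7 and 25.2 RPKM in CD4 Treg, and 23.1 and 22.8 RPKM in CD49lo. This was the reverse of the order of Tcf3 against CD49lo, with narrow gaps between the groups. The fold change was 0.55 ± 0.14 in CD8 Treg against CD49lo, just outside the threshold (adjusted p = 0.0581, interval 1.18-fold to 1.82-fold). It passed with limma-voom on the recovered reads (0.56 ± 0.15, adjusted p = 0.0358). In CD4 Treg against CD49lo it was 0.23 ± 0.11 (adjusted p = 0.197), and in CD8 Treg against CD4 Treg 0.32 ± 0.14 (adjusted p = 0.155). Tcf12 is overlapped on the opposite strand by 3 pseudogenes, 2 of them listed at 0 throughout and Rpl15-ps2 at 0.263 to 1.17 RPKM. The other 5 members overlap no other row.

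**Figure D2:**
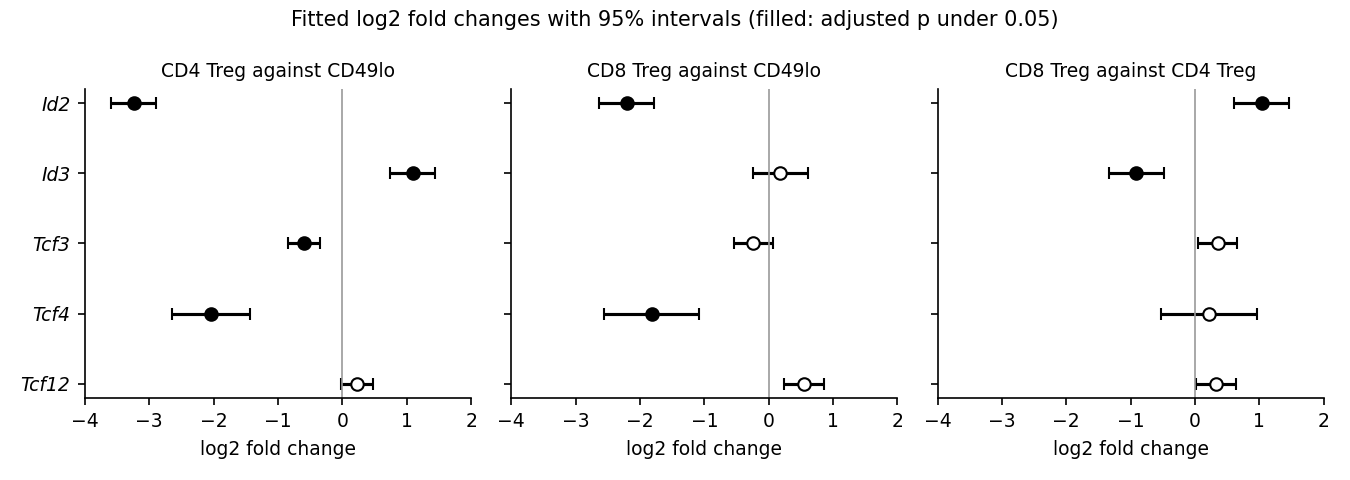
Fitted log2 fold changes (x axis) of the 5 tested members (y axis) in the 3 comparisons, with 95% intervals as bars; filled points have an adjusted p under 0.05. Id2 and Tcf4 lie left of 0 in both comparisons against CD49lo, and Id3 lies right of 0 in CD4 Treg against CD49lo (1.09) and left of it in CD8 Treg against CD4 Treg (-0.91).

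Tcf4 (ENSMUSG00000053477) encodes E2-2, and its transcript was scarce in CD8 Treg and CD4 Treg. It ranked above 17.9% of the tested genes in CD8 Treg, 16.8% and 18.9% in CD4 Treg, and 41.8% and 35.5% in CD49lo. It stood at 0.979 RPKM in CD8 Treg (44 reads), 0.740 and 0.943 RPKM in CD4 Treg (34 and 38 reads), and 5.80 and 4.47 RPKM in CD49lo (359 and 217 reads). The CD49lo libraries lay above the other 3, among which the CD8 Treg library was highest by a narrow margin. The fold change was -2.04 ± 0.27 in CD4 Treg against CD49lo (adjusted p = 0.000698) and -1.82 ± 0.33 in CD8 Treg against CD49lo (adjusted p = 0.0155). Between CD8 Treg and CD4 Treg it was 0.22 ± 0.33 (adjusted p = 0.712, interval 0.696-fold to 1.94-fold). Since levels near 0.5 RPKM are raised by the added constant, these folds understate the ratio. The call in CD8 Treg was lost without any 1 of the 4 replicated libraries (adjusted p = 0.0830 to 0.246) and with a prior on mean log2 RPKM (0.0808). That in CD4 Treg was lost without CD49lo replicate 1 (0.0976) or 2 (0.0852).

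Markers of other cells that use E2-2 were followed beside Tcf4. Siglech, a defining receptor of plasmacytoid dendritic cells, stood at 1.14 RPKM in CD8 Treg, 0.210 and 0 RPKM in CD4 Treg, and 11.3 and 11.5 RPKM in CD49lo. Of 10 tested plasmacytoid dendritic cell genes, 6 were lower and 1, Pacsin1, higher in CD4 Treg than in CD49lo, where 12.7% and 9.39% of all tested genes passed. In CD8 Treg 4 were lower than in CD49lo, where 3.4% of all tested genes passed. In CD8 Treg against CD4 Treg 4 were higher (Irf8, Ly6d, Runx2 and Lair1) and 3 lower (Bst2, Ccr9 and Pacsin1). Of all tested genes, 8.37% passed there as higher and 8.21% as lower. The whole list of 12 summed to 76.5 RPKM in CD8 Treg, 89.5 and 79.3 RPKM in CD4 Treg, and 157 and 182 RPKM in CD49lo. It had 3 genes at 0 in CD8 Treg and 3 and 5 in CD4 Treg. Some of the list thus put CD8 Treg between the other groups, as Ly6d did with 8.63 RPKM in CD8 Treg, 0.217 and 0.247 RPKM in CD4 Treg, and 21.7 and 34.0 RPKM in CD49lo. Cd79a, a chain of the B cell receptor, had the same order, at 18.6 RPKM in CD8 Treg, 0.775 and 1.14 RPKM in CD4 Treg, and 29.2 and 46.9 RPKM in CD49lo. Of the 15 B cell genes, 14 were higher in CD8 Treg than in CD4 Treg. Against CD49lo 0 of the 15 passed in CD8 Treg (median -0.88). Cd22, at 19.5 RPKM in CD8 Treg, lay within its CD49lo range of 18.7 to 19.7 RPKM. For Tcf4, at 34 to 44 reads in these libraries, the interval was 0.696-fold to 1.94-fold, so a difference is not excluded. CD4 Treg was below CD49lo for each of the 15 B cell genes, and 11 of 13 tested myeloid and dendritic cell genes were lower, among them Lyz2 (-6.17 ± 0.29, adjusted p = 3.10e-06). The part of such cells in the levels of Tcf4, Tcf3 and Id2 was not tested.

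**Figure D3:**
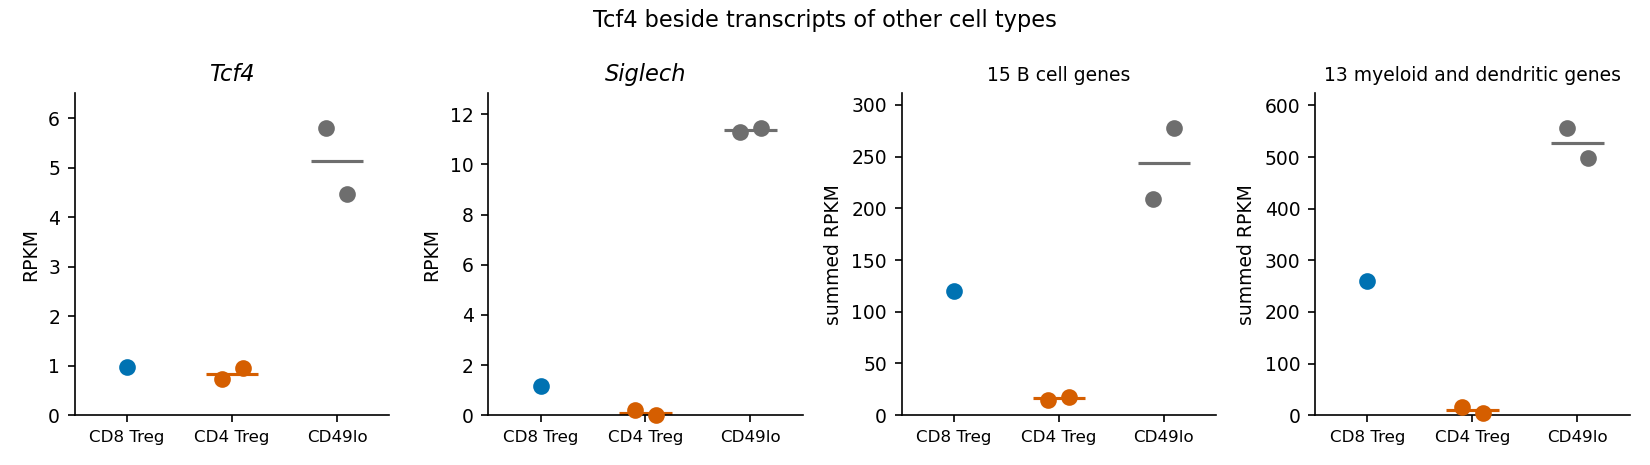
Tcf4 and Siglech in RPKM and the summed RPKM of 15 B cell genes and of 13 myeloid and dendritic cell genes (y axes, from 0) by group (x axis); points are libraries and bars are means of 2. Tcf4 in CD8 Treg (0.979 RPKM) lies just above CD4 Treg. Siglech (1.14 RPKM) and both gene sums (120 and 260 RPKM) in CD8 Treg lie between those of CD4 Treg and CD49lo. The sum of the 12 plasmacytoid dendritic cell genes, not drawn, is lowest in CD8 Treg (76.5 RPKM, against 89.5 and 79.3 RPKM in CD4 Treg).

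Set side by side per length, the Id pool changed its make-up from population to population. Id2 made up 59.4% of the summed Id RPKM in CD8 Treg, 26.9% and 28.8% in CD4 Treg, and 87.7% and 90.0% in CD49lo. The ratio of Id2 to Id3 was accordingly 1.52 in CD8 Treg, 0.369 and 0.404 in CD4 Treg, and 7.19 and 9.0 in CD49lo. Id3 was thus the leading Id transcript in CD4 Treg alone among these libraries.

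The E protein pool was steadier. Summed E protein RPKM was 93.3 in CD8 Treg, 80.3 and 78.2 in CD4 Treg, and 112 and 105 in CD49lo. Tcf3 made up 66.0% of it in CD8 Treg, 64.6% and 66.6% in CD4 Treg, and 74.2% and 73.9% in CD49lo. Summed Id RPKM was 68.8 in CD8 Treg, 71.7 and 81.5 in CD4 Treg, and 216 and 258 in CD49lo. The ratio of summed Id to summed E protein RPKM was therefore 0.737 in CD8 Treg, 0.892 and 1.04 in CD4 Treg, and 1.93 and 2.46 in CD49lo. Per length, Id transcripts exceeded E protein transcripts in both CD49lo libraries and in CD4 Treg replicate 2. As RPM, with no correction for length, the ratio was below 1 in every library (0.228 in CD8 Treg, 0.275 and 0.326 in CD4 Treg, and 0.632 and 0.809 in CD49lo). These ratios describe transcripts and not protein, and they carry no test.

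**Figure D4:**
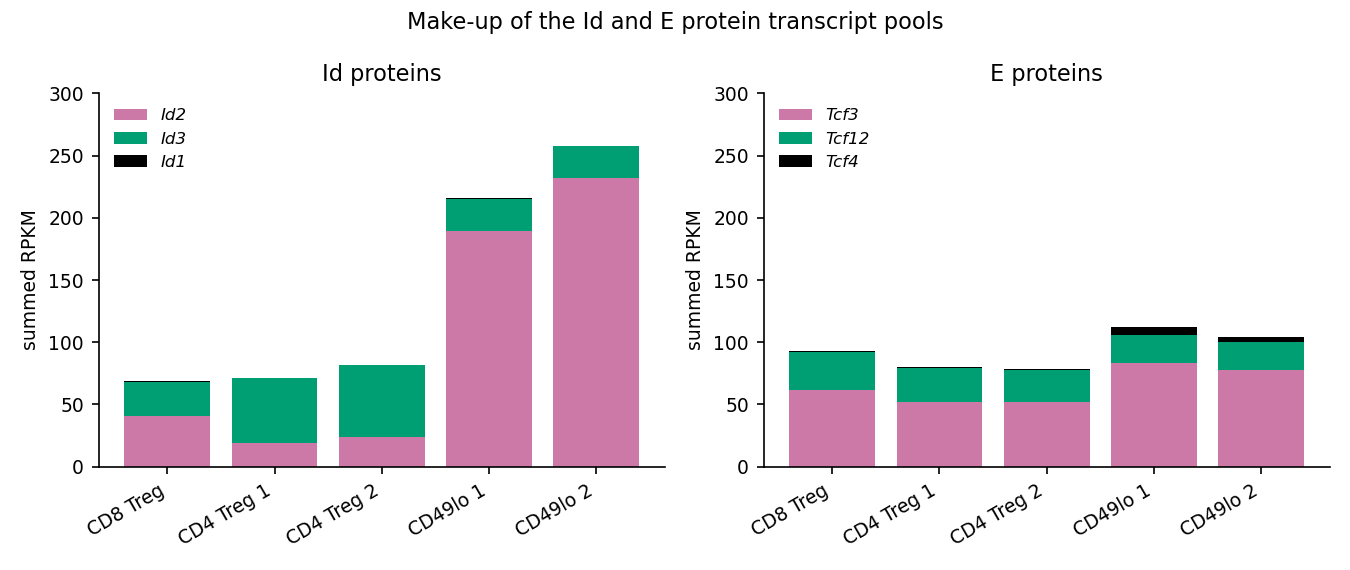
Summed RPKM (y axes, same scale, from 0) of the Id genes (left) and E protein genes (right) in each library (x axis), stacked by gene. The Id stack reaches 216 and 258 RPKM in CD49lo, nearly all of it Id2, and 68.8 to 81.5 RPKM in the other libraries, while the E protein stack stays between 78.2 and 112 RPKM.

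Genes known to act on Id genes were followed as a list of 15, of which 14 were tested. In CD4 Treg against CD49lo 7 were higher and 1 lower, with a median log2 fold change of 0.54 against -0.03 for all tested genes. Of all tested genes, 9.39% passed there as higher and 12.7% as lower. Egr1, an activation-induced factor that drives Id3 in thymocytes, was at 7.93 RPKM in CD8 Treg, 27.4 and 27.3 RPKM in CD4 Treg, and 11.3 and 8.87 RPKM in CD49lo. Its fold change was 1.43 ± 0.16 in CD4 Treg against CD49lo (adjusted p = 0.000291) and -1.62 ± 0.20 in CD8 Treg against CD4 Treg (adjusted p = 0.000709). CD4 Treg thus held the highest levels of both Egr1 and Id3. Such genes also respond to cell handling, which was not tested. Nab2, an Egr corepressor (0.82 ± 0.14, adjusted p = 0.00248), and Smad7, the feedback inhibitor of TGF-beta signalling (0.90 ± 0.11, adjusted p = 0.000376), were also higher in CD4 Treg than in CD49lo. The gene that passed as lower was Zeb2, an effector factor (-5.04 ± 0.35, adjusted p = 2.15e-05). In CD8 Treg against CD49lo 1.64% of all tested genes passed as higher and 3.4% as lower, with a median of -0.04. Of the list, 1 was higher and 2 lower, with a median of -0.23. These were Smad7 (0.65 ± 0.13, adjusted p = 0.0241), Zeb2 (-2.32 ± 0.42, adjusted p = 0.0169) and Prdm1 (-1.31 ± 0.26, adjusted p = 0.0238), which encodes Blimp-1, a repressor of Id3. Prdm1 stood at 1.96 RPKM in CD8 Treg, 8.36 and 8.46 RPKM in CD4 Treg, and 5.05 and 7.41 RPKM in CD49lo, so this repressor, like Id3, had its highest levels in CD4 Treg. It passed in CD8 Treg against CD4 Treg (-1.76 ± 0.26, adjusted p = 0.00209). In CD4 Treg against CD49lo, unlike Id3, it did not pass (0.45 ± 0.21, adjusted p = 0.174). In CD8 Treg against CD4 Treg 1 was higher and 5 were lower, where 8.37% of all tested genes passed as higher and 8.21% as lower.

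Genes reported as regulated by E proteins in lymphocytes, a list of 22 with 19 tested, moved both ways. In CD4 Treg against CD49lo 9 were higher and 4 lower (median 0.44 against -0.03 for all tested genes). Of all tested genes, 9.39% passed there as higher and 12.7% as lower. Socs3 (2.13 ± 0.13, adjusted p = 1.12e-05) and Socs1 (2.07 ± 0.16, adjusted p = 4.24e-05), feedback inhibitors of cytokine signalling, had the smallest p. The follicle homing receptor Cxcr5 (1.36 ± 0.13, adjusted p = 0.000126) and the transcription factor Foxo1 (1.19 ± 0.13, adjusted p = 0.000262) followed. In CD8 Treg against CD49lo 4 were higher and 1 lower (median 0.32), where 1.64% of all tested genes passed as higher and 3.4% as lower. Il7r, the interleukin-7 receptor, was at 133 RPKM in CD8 Treg, 45.1 and 52.9 RPKM in CD4 Treg, and 68.8 and 66.1 RPKM in CD49lo (1.11 ± 0.14 in CD8 Treg against CD49lo, adjusted p = 0.00341). Lef1, a factor of naive and memory cells, was higher (0.68 ± 0.12, adjusted p = 0.0160), as were Socs3 (0.97 ± 0.16, adjusted p = 0.0105) and Cxcr5. Gfi1, a transcriptional repressor, was the gene that was lower (-1.36 ± 0.26, adjusted p = 0.0191). In CD8 Treg against CD4 Treg 4 were higher and 10 lower (median -0.47 against 0.02 for all), where 8.37% and 8.21% of all tested genes passed in each direction. The thymocyte targets Ptcra, Rag1 and Rag2 had too few reads for the test. B cells also express several of these genes, and their share was not tested.

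**Figure D5:**
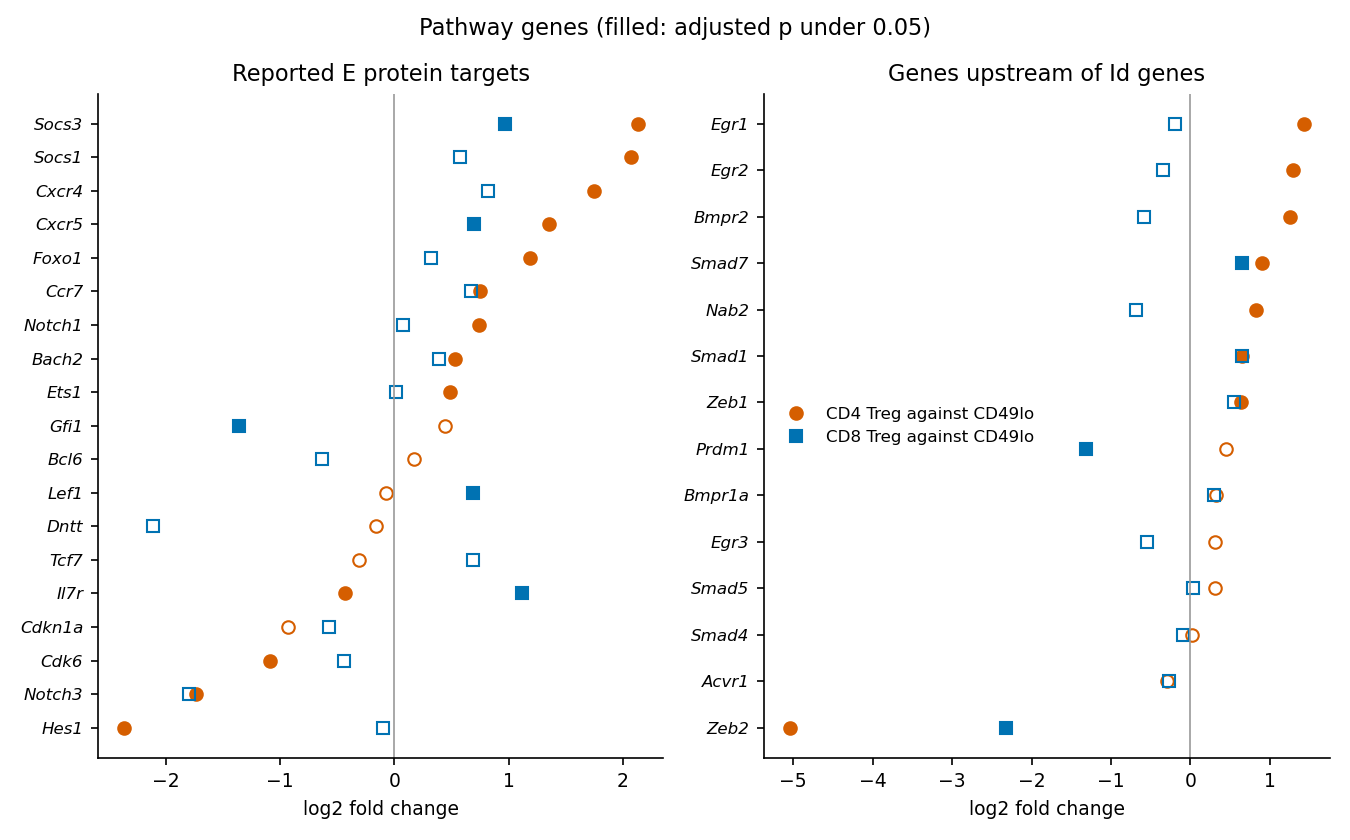
Log2 fold changes (x axes) of 19 reported E protein targets and of 14 genes upstream of Id genes (y axes) against CD49lo; orange circles are CD4 Treg, blue squares CD8 Treg, and filled symbols have an adjusted p under 0.05. Socs3 (2.13) and Egr1 (1.43) head their lists in CD4 Treg, Il7r is lower in CD4 Treg and higher in CD8 Treg, and Zeb2 is lower in both.

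Partners and cofactors formed a list of 18, of which 11 were tested. In CD4 Treg against CD49lo 2 were higher and 5 lower (median -0.87 against -0.03 for all tested genes, of which 9.39% passed as higher and 12.7% as lower). The corepressor Cbfa2t3, which binds E proteins (-3.90 ± 0.39, adjusted p = 0.000155), and Lmo2, a bridging protein of E protein complexes (-3.77 ± 0.42, adjusted p = 0.000283), were lower. Ldb1, the scaffold of the same complexes, was higher (0.49 ± 0.10, adjusted p = 0.00816). Lmo2 stood at 3.19 RPKM in CD8 Treg, 0.189 and 0.646 RPKM in CD4 Treg, and 9.75 and 14.4 RPKM in CD49lo, an order it shared with the summed B cell genes. In CD8 Treg against CD49lo the 1 gene that passed was Bhlhe40 (-2.12 ± 0.32, adjusted p = 0.00716), a basic helix-loop-helix factor of activated T cells. In that comparison 1.64% of all tested genes passed as higher and 3.4% as lower. Of 8 genes of Id protein turnover, 2 were lower in CD4 Treg than in CD49lo (median -0.16), which with so few genes is near the 12.7% of all tested genes. They were the cell cycle gene Cdc20 and Usp1, an enzyme that removes ubiquitin from Id proteins. Usp1 was at 27.6 RPKM in CD8 Treg, 33.8 and 32.5 RPKM in CD4 Treg, and 48.7 and 53.8 RPKM in CD49lo. Its fold change was -0.75 ± 0.14 in CD8 Treg against CD49lo (adjusted p = 0.0193), the 1 gene of that list that passed there, and -0.59 ± 0.11 in CD4 Treg against CD49lo (adjusted p = 0.00586).

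Effector and dividing-cell transcripts were followed beside Id2, with 12.7% of all tested genes lower and 9.39% higher in CD4 Treg than in CD49lo, and 3.4% lower and 1.64% higher in CD8 Treg than in CD49lo. Of 10 effector genes listed as lost without Id2, 8 were lower and 2 higher in CD4 Treg than in CD49lo (median -4.89). In CD8 Treg 5 were lower and 2 higher than in CD49lo (median -2.58). The list was thus chosen for a link to Id2. Between CD8 Treg and CD4 Treg, 7 of the 10 were higher in CD8 Treg and 1, Klrg1, was lower (median 2.45). Of all tested genes, 8.37% passed there as higher and 8.21% as lower. Klrg1, a marker of terminal effectors, was at 0.582 RPKM in CD8 Treg, 13.5 and 11.7 RPKM in CD4 Treg, and 34.5 and 141 RPKM in CD49lo. Tbx21, the effector factor T-bet, stood at 64.3 RPKM in CD8 Treg, 2.20 and 1.99 RPKM in CD4 Treg, and 55.2 and 90.5 RPKM in CD49lo. The CD8 Treg library thus held T-bet transcript within the CD49lo range with Id2 below it. Il2rb and Bcl2 were the 2 that were higher than in CD49lo in both CD4 Treg and CD8 Treg. All 16 cell cycle genes were lower in CD4 Treg than in CD49lo (median -3.00) and 11 were lower in CD8 Treg (median -2.05). Of 12 tested NK and innate lymphoid genes, 7 were lower and 3 higher in CD4 Treg than in CD49lo. Ncr1, a defining NK receptor, was at 18.8 RPKM in CD8 Treg, 0 and 0 RPKM in CD4 Treg, and 5.28 and 7.03 RPKM in CD49lo. Tyrobp, a signalling adaptor of NK and myeloid cells, was at 42.3 RPKM in CD8 Treg, 0.286 and 0.326 RPKM in CD4 Treg, and 71.3 and 86.4 RPKM in CD49lo. Ncr1 thus had its highest level in the 1 CD8 Treg library, while Tyrobp had the order of Id2. In CD8 Treg against CD49lo 0 of these 12 genes passed as higher, so Ncr1 did not pass there, and 1 passed as lower. The part of NK cells in the level of Id2 was not tested.

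Among 8833 genes with at least 10 RPM in 1 group, the profiles nearest to each member over the 5 libraries were ranked by the Euclidean distance between centred log2 values. Nearest to Id3 were Disp1 (0.128), Zfp36l1 (0.133), an RNA-binding factor, and Pnrc1 (0.134). Zfp36l1 stood at 67.2 RPKM in CD8 Treg, 138 and 141 RPKM in CD4 Treg, and 65.3 and 60.2 RPKM in CD49lo. Some of the genes named are near 0 in a group, where the added 0.5 sets the value, as Csf2rb2 and Lifr are in CD4 Treg. Nearest to Id2, at larger distances, were Csf2rb2 (0.449), a cytokine receptor chain, Hist1h2ao (0.480), a histone, and Plaur (0.533), the urokinase receptor. Nearest to Tcf4 were Hmgb2 (0.248), Lifr (0.249) and Tyms (0.280), of which Hmgb2 and Tyms are high in dividing cells. Nearest to Tcf3 were Rbm3 (0.0647), Pold1 (0.0796) and Phykpl (0.0943), and nearest to Tcf12 were Mdn1 (0.0805), Eprs (0.0845) and Nop14 (0.0892). With 5 libraries in 3 groups these distances describe the pattern of group levels and carry no test.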

How the data were processed

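The authors deposited 1 table of RPKM for 5 libraries, presented as counts. CASAVA, STAR and mm10 are named in the submitters' processing notes, with no counter or annotation given in the sources used here. Multiplied by gene length, the values of each library fell on whole multiples of 1 unit (100% within 0.02), taken as 1 read. Tested genes had at least 15 reads in all and, in some library, what 10 reads would be at median depth: 13298 genes, 5 of the 6 members. RPKM were divided by trimmed-mean-of-M-values factors from these reads (0.934 in CD8 Treg, 1.00 and 1.01 in CD4 Treg, 1.02 and 1.04 in CD49lo). A model with 3 groups and 2 residual degrees of freedom was fitted to log2(RPKM + 0.5) using limma 3.58.1 (R 4.3.3), its empirical Bayes prior following mean log2 RPM (depth-scaled reads). CD8 Treg, with 1 library, takes its spread from the other groups. P-values are two-sided and Benjamini-Hochberg adjusted over all tested genes, and passing means an adjusted p under 0.05. Code was tested on simulated data. Named genes are the members, defining markers, up to 4 genes of each list with the smallest p, and the 3 genes nearest to each member. A few others were named after their values were seen, among them Klrg1, Lef1 and the thymocyte targets. The members, lists and tests were chosen with earlier results of these data known.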

Additional observations from a re-analysis of the deposited data

How the results depend on the processing

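Over 15 member comparisons and 175 refits, none turned direction; 146 kept their side of the threshold, 28 fell short and 1 newly passed. Leaving out 1 replicate leaves 1 residual degree of freedom, and the number of genes passing ranged from 438 to 1386 in CD4 Treg against CD49lo (2933 in the full fit), from 161 to 871 in CD8 Treg against CD4 Treg (2205) and from 0 to 146 in CD8 Treg against CD49lo (670). The 0 is limma's count without CD49lo replicate 1, where 2209 genes had an unadjusted p under 0.05. Without a filter the counts were 704 and 1277 in the first and second of these comparisons, and the cause was not tested; Id2 in CD8 Treg against CD4 Treg (adjusted p = 0.106) and against CD49lo (0.0522), Id3 in CD8 Treg against CD4 Treg (0.0504), Tcf3 (0.0625) and Tcf4 (0.0519) in CD4 Treg and Tcf4 in CD8 Treg (0.0958) then fell short. With the prior on mean log2 RPKM the count in CD8 Treg against CD49lo was 350. Without a scaling factor the median fold change there moved from -0.04 to -0.16 and the share of higher calls was 20.6%, against 32.5%; that share was 51.4% with limma-voom and 85.2% without a filter, so the balance of calls there turns with the method. Deviations of replicate 1 from its group mean showed no shared shift between CD4 Treg and CD49lo (r = -0.0203 across 13298 genes). This correlation cannot tell whether replicates were matched. A replicate block was fitted without the CD8 Treg library. It gave 3573 genes in CD4 Treg against CD49lo, against 3159 without the block on the same 4 libraries, and changed no member's call there. As RPM, which keeps gene length in the value, the ratio of summed Id to summed E protein transcripts was 0.228 in CD8 Treg, 0.300 in CD4 Treg and 0.721 in CD49lo, and that of Id2 to Id3 was 1.51, 0.384 and 8.04. Genes of the lists other than the members were called in the full fit. Depth limits Id1 and Id4.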
